A study of Mus musculus with 2 samples.

Results

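The Gimap family (GTPases of immunity-associated proteins) was followed as the 8 genes whose symbols begin with Gimap followed by a single digit, Gimap1, Gimap3, Gimap4, Gimap5, Gimap6, Gimap7, Gimap8 and Gimap9, out of 32285 genes counted. They were measured in 10007 of 16179 cell barcodes, those with at least 1000 genes, at most 5% of unique molecular identifiers (UMIs) from mitochondrial genes, and at least 80% of at least 10 hashtag UMIs on a single hashtag. The cells were thymocytes of C57BL/6 mice, sorted as invariant natural killer T (iNKT) cells with CD1d tetramers (CD1dt). The study compared T-KO mice, in which a floxed Kidins220 gene is deleted in T cells by the Cre of pLckCre mice, with Ctrl mice. The methods state mouse ages as a range over all experiments, from young to older adults, with a narrower range of younger adults for most of them. They do not single out the mice sequenced here. Thymi of 4 mice were pooled per genotype, in parallel 2 times, and from each pool stage 0 cells (TCRβ+ CD1dt+ CD24+ NK1.1-) and stage 3 cells (TCRβ+ CD1dt+ NK1.1+ CD24- CD44+) were sorted.

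GIMAP proteins share a GTP-binding domain of the AIG1 type, and several are anchored in the membranes of intracellular organelles. They are found mainly in lymphocytes. Loss of Gimap5 leads to a shortage of T cells in mice and rats, and Gimap1 is needed for mature T and B cells to persist. In thymocyte development the family is known for being expressed late, in cells that have passed selection.

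The 8 sorted populations were each marked with a hashtag antibody and read as 1 droplet library. The labels pair hashtags 1 to 8 with stage and genotype, but 99.9% of the hashtag UMIs lay on the rows numbered 11 to 18 of the count table. A population is paired with none of these rows in the sources used here. No row was therefore assigned to a stage or genotype, T-KO was not compared with Ctrl, and no test was run. Each row is given as a single value, with an exact 95% Poisson interval where one is printed, which covers counting error only. Levels are given as CPM, the UMIs of a gene per 1000000 gene UMIs, both summed over the cells. In UMI counts less of a transcript and fewer cells that hold it cannot be told apart in a sum.

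The rows fell into an odd-numbered and an even-numbered set. Median UMIs per cell were between 6500 and 8068 in rows 11, 13, 15 and 17 and between 3258 and 3804 in rows 12, 14, 16 and 18, so that both sets differed in depth as well. Klrb1c, which encodes NK1.1, was at 4.78 to 6.57 CPM in the odd and 328.5 to 444 CPM in the even rows, while Cd24a was at 313 to 365 and at 23.3 to 34.2 CPM. The odd rows did not hold T cells alone. The 5 B cell markers summed to between 6142 and 17274 CPM there and to between 299.5 and 680 CPM in the even rows, and the 7 myeloid and dendritic cell markers to between 2235 and 6340 against 255 to 377 CPM. Trav11, the segment of the invariant iNKT receptor chain, was at most 1.14 CPM in the odd and at least 39.5 CPM in the even rows. Summed over whole rows, the markers of the odd rows thus did not bear out the iNKT label for all of their cells. The paper reports that its own clustering held B cells, myeloid cells and double-positive (CD4+ CD8+) and double-negative (CD4- CD8-) thymocytes. It removed these before its analysis of iNKT cells. Whether a part of the odd-row cells were iNKT cells was not tested. Because the odd rows held mixed cells, they were split by the first match of marker genes, with the other cells as a rest group. The markers were Cd79a (2 or more UMIs, B cells), Cst3 (5 or more, myeloid and dendritic cells), Rag1 (1 or more) and Ikzf2 (2 or more). Rag1 was taken to mark thymocytes that recombine receptor genes, without a stage being set. Ikzf2 encodes Helios, raised by strong receptor signals. The Cd79a, Cst3, Rag1, Ikzf2 and rest groups held 810, 972, 418, 1106 and 943 cells.

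In GRCm38 with the GENCODE M21 annotation all 8 genes lay on chromosome 6 within 123618 bases, at chr6:48647234-48770851. Their order was Gimap8, Gimap9, Gimap4, Gimap6, Gimap7, Gimap1, Gimap5 and Gimap3, with Gimap6 and Gimap3 on the minus strand. The sequences just upstream of 4 members are shown because these members parted most in the cell groups described below: Gimap5 stood out in Ikzf2 cells, Gimap9 differed least between Rag1 and rest cells, and Gimap3 and Gimap4 had the widest span between the odd and even rows. Each is the strand of the gene, 5′ to 3′, ending at the base before its annotated start. The positions are chr6:48745947-48746196 for Gimap5 and chr6:48675885-48676128 for Gimap9, both on the plus strand, chr6:48684328-48684548 for Gimap4 on the plus strand, and chr6:48770852-48771101 for Gimap3 on the minus strand (RefSeq, GRCm38.p6). Capitals mark matches, on either strand, to TGTGGT (Runx factors), GGAAGT (Ets factors), CAGNTG (E proteins) or GCGNGGGCG (Egr factors), motifs of factors that act in thymocytes.
Gimap5: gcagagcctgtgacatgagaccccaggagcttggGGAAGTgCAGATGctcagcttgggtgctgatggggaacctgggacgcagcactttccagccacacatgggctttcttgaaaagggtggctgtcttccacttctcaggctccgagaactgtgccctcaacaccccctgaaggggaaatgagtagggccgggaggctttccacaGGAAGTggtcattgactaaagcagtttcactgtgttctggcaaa
Gimap9: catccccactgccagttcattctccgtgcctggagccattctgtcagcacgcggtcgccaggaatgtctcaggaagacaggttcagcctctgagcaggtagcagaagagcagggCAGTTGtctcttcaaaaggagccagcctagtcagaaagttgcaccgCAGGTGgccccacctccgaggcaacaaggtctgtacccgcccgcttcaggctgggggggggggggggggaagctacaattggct
Gimap4: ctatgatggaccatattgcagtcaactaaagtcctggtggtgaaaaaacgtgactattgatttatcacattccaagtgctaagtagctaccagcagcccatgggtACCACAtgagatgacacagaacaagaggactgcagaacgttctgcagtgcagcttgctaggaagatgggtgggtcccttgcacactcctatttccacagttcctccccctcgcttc
Gimap3: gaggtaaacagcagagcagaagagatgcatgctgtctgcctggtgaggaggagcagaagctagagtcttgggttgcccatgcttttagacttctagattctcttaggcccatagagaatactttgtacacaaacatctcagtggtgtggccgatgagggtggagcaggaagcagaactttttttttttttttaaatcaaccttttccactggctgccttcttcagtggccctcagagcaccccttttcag

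The Gimap5 sequence held GGAAGT at 2 places and CAGNTG at 1, where the first GGAAGT lies 1 base before the CAGNTG match. The Gimap9 sequence held CAGNTG at 2 places, the Gimap4 sequence held TGTGGT as its reverse complement at 1, and none of the 4 motifs was found in the Gimap3 sequence. Over the 250 bases before all 32851 RefSeq starts, TGTGGT was found in 14% of sequences, GGAAGT in 19.7%, CAGNTG in 44.8% and GCGNGGGCG in 4.7%. Over the 9 starts listed for the 8 members the numbers were 3, 2, 4 and 0. A match is a description of the letters, and nothing about binding was measured.

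Every member was higher in each even row than in any odd row. This was 8 of 8 genes, where 27.2% of the 7910 genes with at least 20 CPM in a row did the same and 36.5% were higher in every odd row. The median log2 ratio of the even to the odd row medians was 1.75 over the members and -0.09 over all these genes.

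Gimap3 and Gimap4 spanned the widest range between the sets. Gimap3, which in mice encodes an endoplasmic reticulum protein and is a close relative of Gimap5, stood at 40.4, 45, 31.9 and 36.5 CPM in rows 11, 13, 15 and 17. In rows 12, 14, 16 and 18 it stood at 482.8, 561, 461 and 508 CPM, so that the medians were 12.9-fold apart. Gimap4, known for its role in the death of mature T cells, was at 70.6, 57.7, 45.5 and 49.3 CPM in the odd rows. It was at 606, 655, 526 and 618 CPM in the even rows, an 11.4-fold difference of the medians. For both genes the lowest even row exceeded the highest odd row by more than 7-fold, 10.2-fold for Gimap3 and 7.45-fold for Gimap4. These folds were smaller between cells of like depth, and are given so for all members further on.

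The medians of Gimap5, Gimap6 and Gimap8 were between 3.56 and 4.01-fold apart. Gimap5 was at 45.4, 58.3, 39.3 and 55.9 CPM in the odd rows and at 196, 210, 175 and 242 CPM in the even rows. Gimap6, whose product binds proteins of the autophagy machinery, was at 80.9 to 123 CPM in the odd and 281 to 467 CPM in the even rows. Gimap8, a large member with more than a single GTP-binding domain, was at 29.9 to 38.6 and 116.5 to 175 CPM. Row 16 was the lowest of the even rows for all 8 members, with a summed family level of 1930 CPM against 2258 to 2511 CPM in the other even rows.

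The smallest separations were those of Gimap1, Gimap9 and Gimap7. Gimap1 was at 91.2 to 117 CPM in the odd and 244 to 303 CPM in the even rows. Gimap9 was at 42.1 to 60.0 and 92.0 to 120 CPM. Gimap7 was at 17.8 to 27.8 and 34.2 to 54.3 CPM, and its lowest even row was 1.23-fold above its highest odd row. Restricting all rows to cells with 2500 to 6000 UMIs, which brings the depths of both sets together but also changes which cells of the odd rows are kept, left 5 of 8 members with every even row above every odd row, as 12.6% of genes had. The medians were then 4.46-fold apart for Gimap3 and 4.84-fold for Gimap4, and the lowest even row exceeded the highest odd row by 3.41-fold and 3.30-fold. They were 1.75-fold apart for Gimap5, 1.54-fold for Gimap6, 1.40-fold for Gimap8, 1.44-fold for Gimap9 and 1.32-fold for Gimap1. The members that then overlapped were Gimap6, Gimap7 and Gimap8. With the mean of the CPM of each cell, in which deep cells weigh no more than shallow ones, the medians were 7.46-fold apart for Gimap3, 7.15-fold for Gimap4 and between 1.18-fold and 2.63-fold for the other members, and Gimap7 overlapped. Gimap7 turned in the depth window, with a median of 57.2 CPM in the odd and 43.8 CPM in the even rows.

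**Figure D1:**
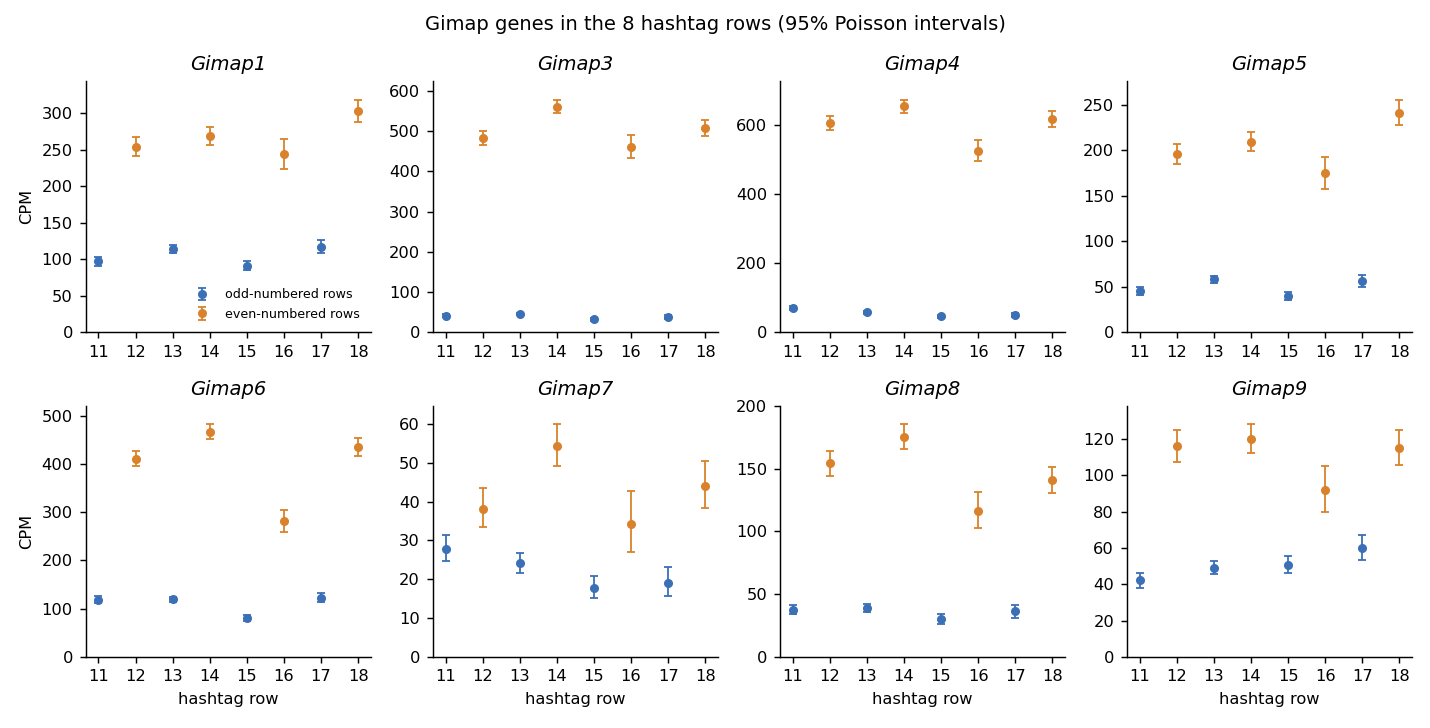
Level of each Gimap gene in CPM (y axis, linear from 0, with its own scale per gene) in the 8 hashtag rows (x axis), odd-numbered rows in blue and even-numbered rows in orange. Bars are 95% Poisson intervals. Gimap3 and Gimap4 show the widest distance between the sets and Gimap7 the narrowest, from 27.8 CPM in row 11 to 34.2 CPM in row 16.

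Neighbouring genes did not follow the family as a whole. Within 250 kb of the members 40 further genes are annotated, 25 of them in the count table, and 4 reached 20 CPM in a row. Zfp467 (5.14 to 10.9 CPM odd, 13.7 to 25.4 CPM even) and Gimap1os (4.33 to 6.23 and 17.5 to 31.8 CPM) were higher in every even row. Tmem176b (71.7 to 198 CPM odd, 14 to 24.3 CPM even) and Tmem176a (40.4 to 116 and 9.91 to 17.9 CPM) were higher in every odd row. Gimap1os lies antisense to Gimap1 and overlaps 1107 of its exon bases. The sources used here do not say whether strand was used in counting, so reads in the overlap cannot be told apart with certainty. Of all 90-base windows of its transcripts, Gimap3 shared 2.05% with Gimap5, and no other pair of members shared one, which leaves little sequence over which reads could be split between members.

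In the odd rows the Rag1 group had the lowest or second lowest median of the 5 groups for 7 of the 8 members, the exception being Gimap9. Rag1 encodes part of the enzyme that recombines receptor genes. Of the double-positive thymocyte markers, the 7 other than Rag1 summed to between 935 and 1540.5 CPM in this group against 521 to 640 CPM in the rest. Cd4, a defining marker of that stage, had the lower median in Rag1 cells, at 14 CPM (11.8 to 61.4) against 38.6 CPM (17.2 to 103). These markers thus did not settle the stage of the Rag1 group. All 8 members were lower in Rag1 cells than in rest cells of the same row in 4 of 4 rows and by at least 1.5-fold over the summed rows. Of the 6773 genes with at least 20 CPM in either group, 8.96% met this rule. Gimap7 was below 20 CPM in both groups and so is not among these genes. The median log2 ratio, with a pseudocount of 10 CPM, was -1.25 over the members and -0.02 over all these genes. Rag1 cells were also deeper, with medians of 14409, 14550 and 15274 UMIs in rows 13, 15 and 17 against 7120, 5193 and 4847.5 in rest cells. In row 11 the medians were 3684.5 and 2859 UMIs. Too few Rag1 cells remained between 2500 and 6000 UMIs to compare, so the part of depth was not tested.

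Gimap8, Gimap3 and Gimap4 were lowest relative to the rest. Gimap8 stood at 13.8, 3.80, 4.52 and 4.74 CPM in the Rag1 cells of rows 11, 13, 15 and 17 and at 70.0, 22.5, 26.8 and 35.0 CPM in the rest cells, 0.149-fold over the summed rows (95% counting interval 0.0987 to 0.219). Gimap3 was at 4.61, 3.80, 6.21 and 4.74 CPM against 36.3, 27.7, 20.9 and 30.0 CPM. Gimap4 was at 10.8, 5.22, 13.5 and 4.74 CPM against 72.6, 33.7, 41.8 and 49.1 CPM. For all 3 genes every Rag1 value lay below every rest value, with the Gimap8 value of row 11 coming nearest. Relative to the even-row median, Gimap3 reached 0.944% and Gimap4 1.31% in Rag1 cells, and Klrb1c, a gene of mature iNKT1 cells, 1.12%. Free RNA was not removed from these counts, and its part in levels this low was not tested.

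Gimap9 and Gimap1 differed least. Gimap9 was at 59.9, 49.4, 48.0 and 43.6 CPM in Rag1 cells and at 99.3, 64.9, 67.4 and 87.1 CPM in rest cells, 0.642-fold (0.553 to 0.745). Its Rag1 cells held 42.2% of the even-row median. Gimap1 was at 72.2, 49.0, 51.9 and 64.4 CPM against 125, 95.4, 74.6 and 78.1 CPM, 0.585-fold (0.509 to 0.67). The Rag1 cells of row 11 stood apart in depth, with a median of 3684.5 UMIs per cell where those of rows 13, 15 and 17 had between 14409 and 15274. Without row 11, 7 of 8 members met the rule, Gimap9 being the one that no longer did, and the same held without row 17.

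The Ikzf2 group was higher than the rest in 3 members. Of the markers of recently signalled thymocytes, the 6 other than Ikzf2, which set the split, summed to between 1655 and 1901 CPM in these cells and to between 1093.5 and 1930 CPM in the rest, so that the groups overlapped. Among them Nr4a1, a gene induced by receptor signals, was at 244 to 355 against 65.6 to 96.1 CPM, whereas Cd24a was at 292 to 368 against 333 to 386 CPM. T cell markers were at a like level in both groups (4434 to 4835 and 4129 to 5047 CPM). Gimap5, Gimap1 and Gimap3 were higher in 4 of 4 rows and by at least 1.5-fold, a rule met by 6.02% of the 7056 genes with at least 20 CPM in either group. The median log2 ratio was 0.46 over the members and 0.02 over these genes.

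Gimap5 differed most. It stood at 129, 125, 93.1 and 106 CPM in the Ikzf2 cells of rows 11, 13, 15 and 17 and at 37.6, 22.1, 22.2 and 28.0 CPM in the rest cells, 4.30-fold (3.67 to 5.07), and every Ikzf2 value lay above every rest value. After thinning each cell to 2000 UMIs, Gimap5 had a UMI in 24.1% of Ikzf2 cells (exact binomial interval 21.6 to 26.8) and 7.97% of rest cells (6.22 to 10.0). Such binomial intervals pool the cells of all odd rows and do not cover the spread between rows. The same share was 2.47% in Cst3 cells and 20.3% in Cd79a cells (17.55 to 23.27). Median depths before thinning were 5517.5, 4159, 10487 and 6002.5 UMIs in Ikzf2, rest, Cst3 and Cd79a cells. The thinning left out 53, 115, 2 and 17 cells, and the shares before thinning were 47.0%, 14.9%, 8.23% and 45.9%. The share in Ikzf2 cells was thus above those in rest and Cst3 cells, while its interval overlapped that of Cd79a cells.

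Gimap1 was at 202, 177, 171 and 185 CPM in the Ikzf2 cells, 1.90-fold over the rest (1.74 to 2.09), again with no overlap. Gimap3 was at 39.8, 48.9, 46.3 and 52.8 CPM, 1.68-fold (1.41 to 2.00), and the Ikzf2 cells of row 11 exceeded the rest cells of that row (36.3 CPM) only slightly. Gimap3 was no longer called in cells with 2500 to 6000 UMIs, with the mean of the CPM of each cell, or with a rest group free of UMIs of Cd79a, Rag1 and Ikzf2.

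Gimap4 went the other way. It was lower in Ikzf2 than in rest cells in 4 of 4 rows, at 50.9, 31.6, 26.3 and 42.6 CPM against 72.6, 33.7, 41.8 and 49.1 CPM, 0.758-fold (0.646 to 0.889), and 17% of all genes were lower in 4 of 4 rows. The fold is short of the limit of 1.5-fold, which 2.86% of all genes reached downwards and by which Gimap4 was called in the same 3 settings in which Gimap3 was not. So Gimap3 and Gimap4, alike in their span between the odd and even rows, pointed in opposite directions between Ikzf2 and rest cells. Over the alternative settings with all rows kept, the log2 ratio of Gimap4 ran from -1.12 to 0.11, against -0.32 here. Its direction thus did not hold in every setting, while the log2 ratio of Gimap3 ran from 0.33 to 0.86. After thinning, Gimap4 had a UMI in 9.21% of Ikzf2 cells (7.53 to 11.1) and 12.8% of rest cells (10.6 to 15.3).

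Gimap6 and Gimap8 were higher in the Ikzf2 cells of rows 13, 15 and 17 and lower in those of row 11. Gimap8 was at 53.4, 72.9, 61.9 and 60.7 CPM against 70.0, 22.5, 26.8 and 35.0 CPM in the rest. Gimap6 was at 162, 173, 134.5 and 191 CPM against 237, 92.3, 87.6 and 132 CPM. Without row 11, both met the rule and the count of members higher became 5 of 8. The rest cells of row 11 had a median of 2859 UMIs, below the 4847.5 to 7120 of the other odd rows, and their summed family level was 702 CPM against 360 to 459 CPM. Gimap7 was at 14.2 to 20.3 CPM in Ikzf2 and 11.9 to 24.2 CPM in rest cells, 0.961-fold (0.747 to 1.24). Gimap9 was at 70.1 to 83.3 and 64.9 to 99.3 CPM, 1.00-fold (0.895 to 1.13). For these last genes the direction differed between rows.

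**Figure D2:**
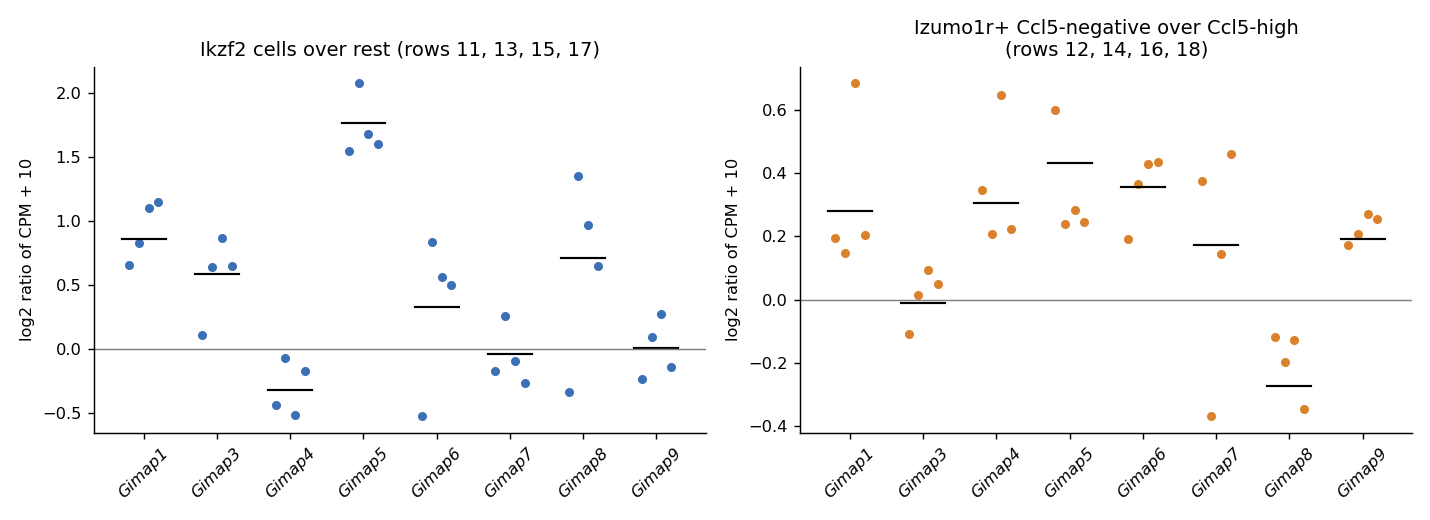
Log2 ratio of CPM + 10 (y axis) for each Gimap gene (x axis) between Ikzf2 and rest cells of the odd rows (left) and between Izumo1r+ Ccl5-negative and Ccl5-high cells of the even rows (right). Points are single rows and black lines are the ratio over the summed rows. On the left Gimap5 lies highest at 1.76 and Gimap4 lies below 0 in all 4 rows, and on the right Gimap8 lies below 0 in all 4 rows.

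Rag1 and Ikzf2 cells were also set against each other directly, a comparison added after the data were seen. All 8 members were lower in Rag1 cells in 4 of 4 rows and by at least 1.5-fold, as were 16.8% of 7039 genes. Gimap7 was below 20 CPM in both groups. Median UMIs per cell were 3684.5, 14409, 14550 and 15274 in the Rag1 cells of rows 11, 13, 15 and 17. In Ikzf2 cells they were 4611, 5543, 5962 and 5270.5, and the part of depth was not tested. Gimap5 was 0.0597-fold (0.042 to 0.0826), Gimap8 0.0826-fold (0.0552 to 0.119) and Gimap3 0.101-fold (0.0658 to 0.149) of the level in Ikzf2 cells. At the other end stood Gimap9 at 0.639-fold (0.553 to 0.737). Relative to the even-row median the members of Ikzf2 cells ranged widely. Gimap4 reached 6.06% and Gimap3 9.61%, whereas Gimap7, Gimap6 and Gimap8 reached 39.8%, 39.5% and 41.6%, Gimap5 56.9%, Gimap1 69.4% and Gimap9 69.9%. Klrb1c reached 1.47%.

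**Figure D3:**
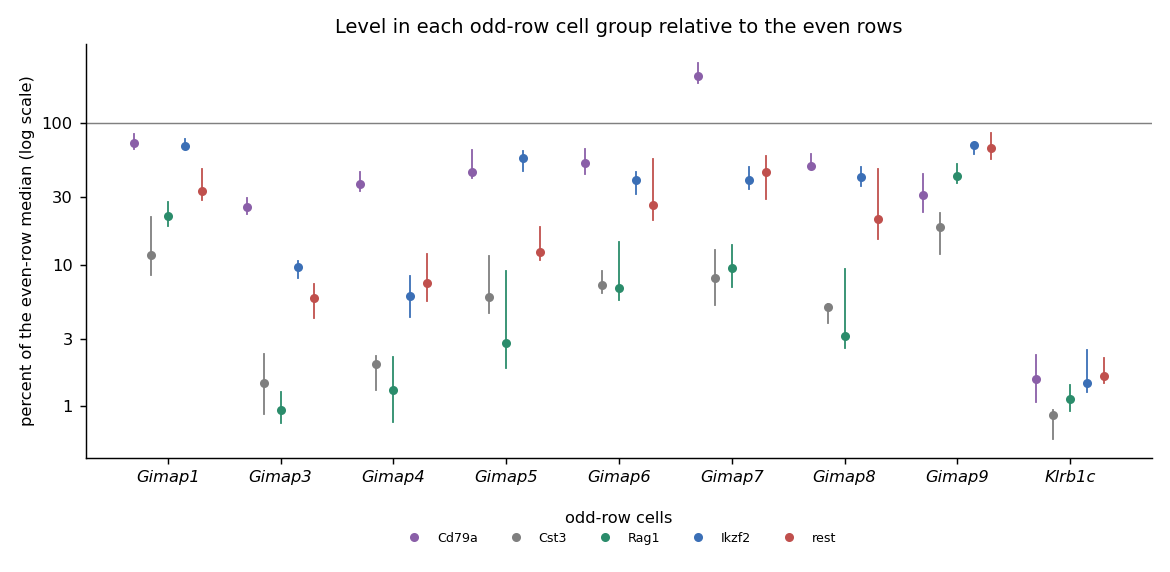
Level of each Gimap gene and of Klrb1c (x axis) in the 5 cell groups of the odd rows as a percent of its even-row median (y axis, log scale). Points are medians over 4 rows and lines run from the lowest to the highest row. In Ikzf2 cells Gimap3 and Gimap4 lie below 11%, whereas Gimap1, Gimap5 and Gimap9 lie between 45.9% and 77.2%.

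The Cd79a group, whose 4 B cell markers other than Cd79a summed to between 20779 and 21934 CPM against 188 to 437 CPM in the rest, carried most members at a high level. Gimap1, Gimap3, Gimap4, Gimap5, Gimap7 and Gimap8 were higher than in rest cells in 4 of 4 rows and by at least 1.5-fold, 6 of 8 members where 13.3% of 7344 genes met the rule. Gimap7, which encodes a GTPase that works as a dimer, was at 92.1, 85.2, 79.5 and 110 CPM in the Cd79a cells of rows 11, 13, 15 and 17, 5.16-fold over the rest (4.23 to 6.34). This was above every value of Gimap7 in any other group, the highest of which was 69.2 CPM in Izumo1r+ Ccl5-negative cells of row 18. Gimap4 was at 215, 205, 243 and 278 CPM, 4.71-fold (4.17 to 5.33), and Gimap3 at 114 to 147 CPM, 4.39-fold (3.76 to 5.16). Both remained below every even-row group. Gimap5 was at 82.8 to 131 CPM, 3.57-fold (3.03 to 4.24), and Gimap1 at 173 to 218 CPM, 1.95-fold (1.77 to 2.15).

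Gimap8 was at 70.3, 72.8, 75.2 and 89.6 CPM in the Cd79a cells, 2.04-fold (1.75 to 2.39), but in row 11 it nearly equalled the rest at 70.0 CPM. It lost its place among the members called in 6 of the alternative settings. In cells with 2500 to 6000 UMIs the log2 ratio (pseudocount 10 CPM) fell from 2.02 to 1.00 for Gimap4, from 1.86 to 1.11 for Gimap7, from 1.81 to 1.18 for Gimap3 and from 0.86 to 0.12 for Gimap8. Gimap6 was higher in rows 13, 15 and 17 and lower in row 11, at 197 against 237 CPM. Gimap9 was the single member lower in the Cd79a cells, at 27.4, 38.1, 33.8 and 50.6 CPM against 99.3, 64.9, 67.4 and 87.1 CPM in the rest, 0.455-fold (0.387 to 0.533), a direction that 46.9% of all genes shared. The T cell list stood at 9.29% of its rest level in these cells, the members other than Gimap9 at 174% to 516% and Gimap9 at 45.5%. The part of free RNA in these levels was not tested.

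The Cst3 group was lower than the rest for all 8 members in 4 of 4 rows and by at least 1.5-fold, where 24.3% of 7300 genes met the rule. Gimap7 was below 20 CPM in both groups and so is not among these genes. The summed family stood at 106, 112, 131 and 176.5 CPM in rows 11, 13, 15 and 17. Cst3 cells had no T cell identity by their markers, yet the T cell list stood at 21.2% of its rest level, with its 8 genes between 18.8% and 24.9%. Gimap7, Gimap8, Gimap6, Gimap4 and Gimap9 stood at 17.5%, 19.4%, 23.2%, 23.4% and 24.8%, in or next to the same range. Gimap3, Gimap1 and Gimap5 stood somewhat higher at 28.7%, 31.9% and 45.9%. The part of free RNA in these levels was not tested.

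**Figure D4:**
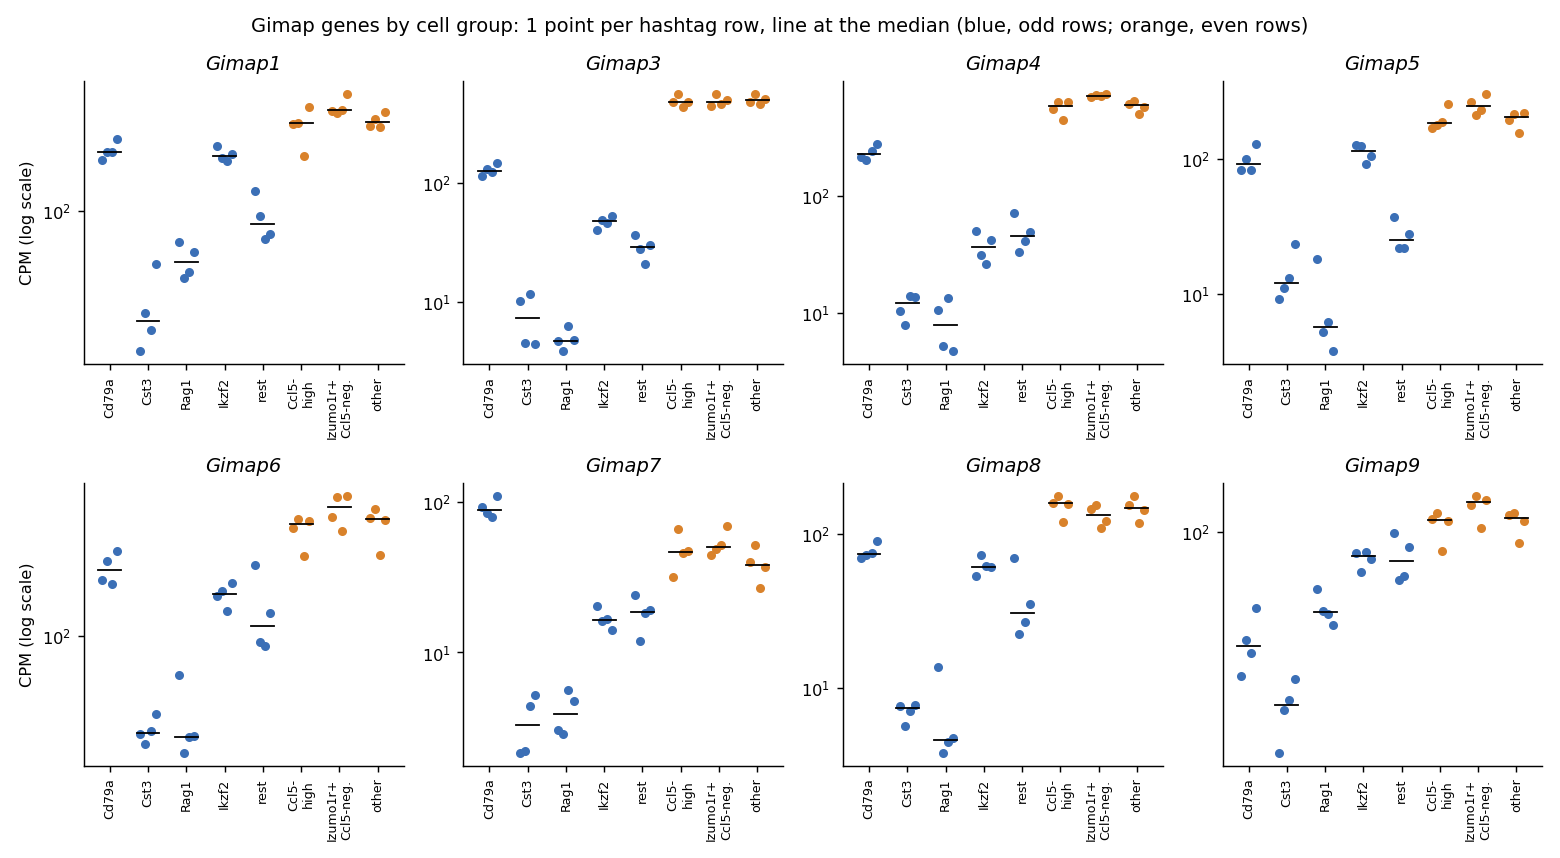
Level of each Gimap gene in CPM (y axis, log scale, with its own range per gene) in the 5 cell groups of the odd rows (blue) and the 3 of the even rows (orange). Each point is 1 hashtag row and each line the median of 4 rows. Gimap7 is highest in Cd79a cells (79.5 to 110 CPM), and Gimap9 is the member that differs least between Rag1 cells (43.6 to 59.9 CPM) and the T cell groups.

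The even rows were split into 1051 Ccl5-high cells (4 or more UMIs), 538 Izumo1r+ Ccl5-negative cells (2 or more Izumo1r UMIs) and 4169 other cells. Ccl5 is a chemokine gene of effector lymphocytes, and Izumo1r marks early iNKT1 cells. The 6 iNKT1 markers other than Ccl5 summed to between 3786 and 4614 CPM in the Ccl5-high and between 2999 and 3955 CPM in the Izumo1r+ cells. Listed with Izumo1r were Icos, Zbtb16, Il4 and Trav11, of which Trav11 is not particular to early iNKT1 cells. These 4 summed to between 141 and 162.5 CPM in the Ccl5-high and between 349 and 528 CPM in the Izumo1r+ cells. Median UMIs per cell were between 3423 and 3964 in the Ccl5-high and between 3476 and 4483 in the Izumo1r+ cells.

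Differences of the family within the even rows were small. Of the 8 members, 5 were higher in Izumo1r+ cells in 4 of 4 rows and 1 was lower, where 13.4% and 9.63% of 6429 genes were. None reached 1.5-fold, a limit met by 2.41% of genes upwards and 2.57% downwards. Gimap5 was at 266, 214.5, 233 and 305.5 CPM in the Izumo1r+ cells of rows 12, 14, 16 and 18 and at 172, 180, 189.5 and 256 CPM in the Ccl5-high cells, 1.37-fold (1.23 to 1.52). Gimap6 was at 427, 542, 358 and 554.5 CPM against 373, 418, 264 and 407 CPM, 1.29-fold (1.19 to 1.39). For both genes the groups overlapped across rows.

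Gimap4 was at 704, 736, 711 and 747 CPM in the Izumo1r+ cells and at 551, 637, 451 and 638 CPM in the Ccl5-high cells, 1.24-fold (1.16 to 1.32). The other cells, which were not divided further, stood at 614.5, 651, 501 and 579 CPM. Of these 3 groups, the Izumo1r+ values lay above those of both others without overlap. Gimap1 was at 294.5, 287, 298 and 353 CPM against 256, 258, 182 and 305 CPM, 1.22-fold (1.11 to 1.35). Gimap9 was 1.16-fold with an interval of 0.993 to 1.34. Gimap8 was the single member lower, at 146, 154, 109 and 121 CPM against 159, 177.5, 120 and 157 CPM, 0.816-fold (0.709 to 0.939). With either of the other thresholds on Ccl5 and Izumo1r it was no longer lower in every row. Gimap3 was at 446 to 566 against 435 to 559.5 CPM, 0.993-fold (0.922 to 1.07), the narrowest interval around no difference. Gimap7 was 1.15-fold (0.914 to 1.45), lower in row 14 alone.

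Genes of related pathways differed in part alike. Of 15 genes of lymphocyte egress and quiescence, 9 were higher in every even row and 4 in every odd row, against 27.2% and 36.5% of all genes, and their median log2 ratio of the row medians was 0.76. Klf2, a factor that drives exit from the thymus, was at 83.0 to 111 CPM in the odd and 346 to 468 CPM in the even rows. Il7r, the receptor chain for the survival cytokine IL-7, was at 40.6 to 53.9 and 821 to 859 CPM. Tcf7, encoding the factor TCF-1 of early T cell development, was the reverse at 415 to 932 and 184 to 223 CPM. In Rag1 cells 7 of the 14 with at least 20 CPM, Klf2 among them at 10.6 against 53.0 CPM, were called lower than in the rest, as were 8.96% of all genes, and 0 were called higher, as were 1.7%. In Ikzf2 cells 3 of 14 were called higher, against 6.02% of all genes, Klf2 (125 against 53.0 CPM, summed rows), Foxo1 (73.3 against 28.8 CPM) and Btg1 (231 against 142 CPM), and 3 lower, against 2.86%, Il7r, Ccr7 and Satb1. In Izumo1r+ against Ccl5-high cells 0 of 14 were called higher and 3 lower, against 2.41% and 2.57% of all genes, and Klf2 stood at 218 against 594 CPM and thus opposite to Gimap4, Gimap5 and Gimap6.

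The Bcl2 family, with which Gimap3 and Gimap5 products have been reported to associate, showed no common direction. Of 16 genes, 12 reached 20 CPM in a row, with a median log2 ratio of 0.14. Of these, 3 were higher in every even row (Bcl2, Bbc3 and Bcl2a1b), against 27.2% of all genes. Another 3 were higher in every odd row (Bak1, Pmaip1 and Bid), against 36.5%. Bcl2, which protects from apoptosis, was at 18.6 CPM in Rag1 and 104 CPM in rest cells over the summed rows. Bcl2l11, encoding the death-promoting Bim, was at 68.6 CPM in Ikzf2 and 30.2 CPM in rest cells. It was the single gene called higher there of the 7 of this list with at least 20 CPM, against 6.02% of all genes. Other GTPases, those induced by interferon, were found for 16 of 18 listed symbols. Of the 11 with 20 CPM in a row 9 were higher in every even row and 0 in every odd row, against 27.2% and 36.5% of all genes. Their median log2 ratio was 1.24, with Ifi47 at 69.9 to 78.0 and 212.5 to 273 CPM. Within the odd rows, 2 of the 8 with at least 20 CPM were called lower in Rag1 than in rest cells, against 8.96% of all genes. All 8 Gimap genes were called lower, 7 of them with at least 20 CPM. Ifi47 stood at 84.9 against 87.6 CPM. In Cd79a cells 7 of 12 were called higher and 0 lower, against 13.3% and 46.9% of all genes, where 6 of 8 Gimap genes were higher. In Cst3 cells 5 of 9 were called lower and 1 higher, against 24.3% and 15.3%. All 8 Gimap genes were lower there, 7 of them with at least 20 CPM.

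Members also differed in how alike their levels were. Over 32 units of a cell group within a row, Pearson correlations of log2(CPM + 10) were 0.985 for Gimap6 with Gimap8, 0.984 for Gimap3 with Gimap4 and 0.45 for Gimap7 with Gimap9. Over the 20 units of the odd rows Gimap9 correlated with the other members at between 0.126 and 0.557. These units share 1 library, rows and free RNA, and the values describe them only. Among genes with a mean of at least 50 CPM, those most alike to the summed family were Pdcd4 (0.968), Sesn3 (0.966), Zgpat (0.964), Ccnd2 (0.962), Il2rg (0.959), Slc50a1 (0.957), mt-Atp8 (0.955) and Rac2 (0.955). Within the 12 units of the even rows the same genes correlated with the family at between -0.40 and 0.67, so that the likeness lay mainly in the step between the sets and in the odd rows.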

How the data were processed

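Stage 0 and stage 3 thymocytes of Ctrl and T-KO mice, 8 hashtagged populations, were sequenced as 1 library of 5′ transcripts and 1 of hashtags. The authors deposited raw UMI counts per gene and barcode, made with Cell Ranger 6.0.0 on a prebuilt mm10 reference, and did not normalize them. The sources used here do not name its release. Depth per row was between 2283162 and 14601545 gene UMIs.

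From these counts, cells were filtered and assigned to hashtag rows as given in the report. A cell needed at least 80% of its hashtag UMIs on 1 row, which leaves out doublets whose hashtag UMIs are spread more evenly over rows. How many doublets remained was not measured. No doublet caller was run, and free RNA was not removed. UMIs were summed per row or per cell group and row (at least 20 cells), and turned into CPM. A gene was called between cell groups when its log2 ratio (pseudocount 10 CPM) had the same sign in every row and the summed ratio was at least 1.5-fold. The background was every gene with at least 20 CPM in either group, or, for whole rows, in any row, without the genes used for the split. Gimap7 was below that level in the comparisons among Cst3, Rag1, Ikzf2 and rest cells, but was kept in the counts of members. Intervals are exact, at 95%. No test across samples was run, since no row has an assigned group. Python 3.11.15, numpy 2.4.6, scipy 1.17.1 and pandas 2.3.3 were used, and the call rule was tested on simulated data.

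The named genes were the 8 members, 3 lists (egress and quiescence, Bcl2 family, interferon-induced GTPases), neighbours within 250 kb and the 8 genes most alike in pattern. 1 gene of the first list is not reported here. The members, cell groups and lists were chosen with earlier results of these data known. The comparison of Rag1 with Ikzf2 cells was added after the data were seen. Alternatives changed the hashtag limits, cell filters, depth, CPM, pseudocount, background and split, or left out 1 row. Promoter sequences came from RefSeq (GRCm38.p6), and 8 of 8 members matched.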

Additional observations from a re-analysis of the deposited data

Results flagged for a closer look

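In 5 of 80 sets of 4 rows, a member had 1 row apart from the other 3, by a gap beyond Dixon's 95% critical value, which chance gives in about 1 in 20 such sets. Of these, 3 were in Rag1 cells, where row 11 was high for Gimap5 (18.4 CPM against 3.79 to 6.21), Gimap6 (61.4 against 23.8 to 29.4) and Gimap8 (13.8 against 3.80 to 4.74). The Rag1 cells of row 11 were 72 cells with a median of 3684.5 UMIs, against 14409 to 15274 in the other odd rows, and the part of depth in these values was not tested. Over all cells of the odd rows, Gimap6 was low in row 15 (80.9 CPM against 118 to 123). In Izumo1r+ Ccl5-negative cells, Gimap1 was high in row 18 (353 CPM against 287 to 298).

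Outside the 8 hashtag rows in use, rows 1 and 4 held 12255 and 11854 UMIs, where none of the other 10 unused rows held more than 599. They were not used to assign cells.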

How the results depend on the processing

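Of 190 recomputed counts of members, 181 stayed within 1.5 times the value in the report. A count of 0 that stayed 0 is among these, and a change of pseudocount cannot alter a count, so part of them could not move. Of 712 recomputed log2 ratios of single members, 537 stayed within their counting interval and 174 moved beyond it. The remaining 1, of a member that met its rule, changed sign. Sign changes of members that did not meet a rule were not counted apart. Gimap4 between Ikzf2 and rest cells was such a case, going from -0.32 to as high as 0.11. Of 220 shares of all genes 30 moved by more than 1.5 times. With cells of 2500 to 6000 UMIs, 5 of 8 members had every even row above every odd row, and the log2 ratio of the medians of Gimap7 turned to -0.38. In this window, with the mean of the CPM of each cell, and with a rest group free of UMIs of Cd79a, Rag1 and Ikzf2, 1 member (Gimap4) was called lower in Ikzf2 than in rest cells in place of 0, with a log2 ratio of -1.12 in the window and -0.93 with the mean in place of -0.32. The log2 ratios that moved by over 1.5 times were 20 in the window, 18 with the mean, 13 with a pseudocount of 1 CPM and 6 with at most 4000 genes per cell. With either other threshold on Ccl5 and Izumo1r, 0 members were lower in Izumo1r+ cells in every row in place of 1, and with the stricter of them 1 member (Gimap5) was called higher. Leaving out 1 row at a time, between 3 and 5 members were called higher in Ikzf2 cells (5 without row 11) and between 0 and 1 in Izumo1r+ cells (Gimap7, without row 14). The share of all genes with every even row above every odd row was 9.11% without a minimum level, in place of 27.2%. The cause of these shifts was not tested. In the depth window too few Rag1 cells remained in at least 2 rows, and those comparisons have no value there. No paired analysis was possible because no hashtag row could be assigned to a genotype or replicate.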
